A study of Mus musculus with 31 samples.

Results

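The genes described here are 10 chaperones and factors of the unfolded protein response of the endoplasmic reticulum (ER): Hspa5, Hsp90b1, Pdia4, Pdia6, Calr, Dnajb9, Sdf2l1, Creld2, Manf and Xbp1. They were chosen by name as genes of this response, and their Ensembl identifiers were matched through the GENCODE vM21 annotation. All 10 were present among the 35275 genes of the insulin count table and the 54532 genes of the ERRα3SA count table, and all 10 passed the filter on low counts in each of the 9 comparisons. The study asked how the nuclear receptor ERRα, encoded by Esrra, takes part in the response to insulin, and measured RNA by sequencing in liver and muscle of male mice, 31 samples in 8 groups. All mice were on a C57BL/6N background and, by the study's methods, 2 to 3 months old, and the sample number n counted individual mice.

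In the insulin experiment, WT mice and mice with a germline deletion of ERRα (ERRα-/-) were fasted for 12 h, injected intraperitoneally with saline or with insulin at 1 unit/kg, and their livers were taken 4 h later. This gave WT saline (n = 4), WT insulin (n = 4), ERRα-/- saline (n = 4) and ERRα-/- insulin (n = 3, with the replicate numbers 1, 2 and 4). In the ERRα3SA experiment, liver and skeletal muscle came from mice whose ERRα carries alanines in place of phosphorylated serines, an allele made by CRISPR/Cas9, and from WT littermates on a normal diet, with n = 4 in each of WT liver, ERRα3SA liver, WT muscle and ERRα3SA muscle. No saline or insulin injection is given in the labels of these latter samples. The samples are whole tissue, so fewer cells of a type and less RNA per cell cannot be told apart.

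Each liver of the insulin experiment had 35871419 to 48317108 counts, and each sample of the ERRα3SA experiment had 20481405 to 33412022. Values are given as CPM, counts scaled to library size with TMM normalization within each table, and levels are not compared between the 2 tables because each was normalized on its own. Esrra itself served to check the labels. It stood at 32.26, 51.29, 42.73 and 40.51 CPM in WT saline and at 53.68, 96.43, 56.06 and 58.97 CPM in WT insulin. In ERRα-/- mice it stood at 1.627, 0.703, 1.153 and 1.042 CPM with saline and at 0.8326, 0.5762 and 0.2984 CPM with insulin. No knockout liver overlapped a WT liver, and the log2 fold change was -5.205 (adjusted p = 2.58e-06, edgeR) with saline and -6.862 (adjusted p = 3.55e-05, edgeR) with insulin. In the ERRα3SA experiment Esrra was 27.72, 27.06, 28.15 and 29.44 CPM in WT liver and 29.4, 25.38, 21.06 and 19.19 CPM in ERRα3SA liver. WT muscle had 90.19, 82.64, 66.91 and 78.04 CPM, and ERRα3SA muscle had 24.3, 132.7, 126.8 and 94.49 CPM. The first ERRα3SA muscle was therefore below all WT muscles for Esrra, while the other 3 were above all of them.

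The ER folds proteins that enter the secretory pathway, and hepatocytes, which secrete most plasma proteins, carry a large folding load. When unfolded proteins build up, the sensors IRE1 (Ern1), PERK (Eif2ak3) and ATF6 (Atf6) start the unfolded protein response, which raises transcription of chaperones. In liver this response is also known to be engaged by feeding.

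Among the general chaperones, Hspa5 (ENSMUSG00000026864) encodes BiP, the Hsp70 of the ER and the partner that holds the sensors inactive. Hsp90b1 (ENSMUSG00000020048) encodes GRP94, the Hsp90 of the ER, and Calr (ENSMUSG00000003814) encodes calreticulin, a calcium-binding lectin that folds glycoproteins. Pdia4 (ENSMUSG00000025823) and Pdia6 (ENSMUSG00000020571) encode protein disulfide isomerases. Dnajb9 (ENSMUSG00000014905) encodes ERdj4, a J-domain partner of BiP, and Sdf2l1 (ENSMUSG00000022769) encodes a small ER-resident partner of J-domain proteins. Creld2 (ENSMUSG00000023272) and Manf (ENSMUSG00000032575) encode ER-resident proteins that can be secreted when the ER is under stress. Xbp1 (ENSMUSG00000020484) encodes the transcription factor whose mRNA IRE1 splices, and gene counts do not tell the spliced from the unspliced form.

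Promoter sequences are shown because a short element of chaperone promoters, the ER stress response element (ERSE), is known to bind ATF6 and XBP1. RefSeq promoters of 300 bases (250 before to 50 after the start, GRCm38.p6) were matched for 9 of the 10 members, and Manf was not in the table. Both strands were searched for ERSE (CCAAT, 9 bases of any kind, then CCACG), for ERSE-II (ATTGG, 1 base of any kind, then CCACG), for the core TGACGTG of the UPR element and for the ERR element (T, 1 base of any kind, then AAGGTCA). ERSE was found in 5 of 9 members and in 39 of 32851 promoters (0.119%). ERSE-II was in 0 of 9 members and 12 promoters (0.0365%), TGACGTG in 1 of 9 members and 661 promoters (2.01%), and the ERR element in 0 of 9 members and 421 promoters (1.28%). Below, each excerpt runs 5′ to 3′ on the gene's strand with matches in capitals, and a match on the opposite strand reads as CGTGG first. The excerpts lie at chr2:34771913-34772063 (plus strand, Hspa5), chr10:86705513-86705676 (minus strand, Hsp90b1), chr12:17266471-17266529 (plus strand, Pdia6), chr8:84847055-84847113 (minus strand, Calr) and chr15:88819500-88819558 (plus strand, Creld2).
Hspa5: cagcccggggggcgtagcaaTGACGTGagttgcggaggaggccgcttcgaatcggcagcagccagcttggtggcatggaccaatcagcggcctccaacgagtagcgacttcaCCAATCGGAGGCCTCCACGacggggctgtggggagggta
Hsp90b1: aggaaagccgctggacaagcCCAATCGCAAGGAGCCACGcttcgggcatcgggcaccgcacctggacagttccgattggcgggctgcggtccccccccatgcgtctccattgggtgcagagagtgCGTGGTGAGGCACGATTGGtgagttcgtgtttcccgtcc
Pdia6: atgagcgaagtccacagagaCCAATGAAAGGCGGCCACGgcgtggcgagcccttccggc
Calr: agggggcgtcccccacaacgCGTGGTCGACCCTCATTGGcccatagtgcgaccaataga
Creld2: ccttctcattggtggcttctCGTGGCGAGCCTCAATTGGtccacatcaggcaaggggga

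The Hspa5 excerpt holds TGACGTG and a single full ERSE, which do not overlap, and Hsp90b1 holds a pair of ERSE copies in opposite orientation. Pdia6 has its ERSE on the gene's strand, while Calr and Creld2 have it on the opposite strand. The letters of none of these motifs were found in the windows of Pdia4, Dnajb9, Sdf2l1 and Xbp1. In other lists ERSE was in 1 of 11 PERK branch genes, 2 of 28 further ER folding genes, 2 of 24 genes of ER-associated degradation, and 0 of 8 sensor genes, 25 translocation and export genes, 16 cytosolic and 9 mitochondrial chaperones. TGACGTG was in 3 of 28 further ER folding genes, 2 of 24 of ER-associated degradation, 3 of 25 of translocation and export, and 0 of the other 4 lists. ERSE-II was in 1 further ER folding gene and 1 of ER-associated degradation, and the ERR element in 1 of 16 cytosolic chaperones. These matches are descriptions of the sequence and were not tested for binding.

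The summed counts of the 10 genes differed between mice of a group, and single mice were high in several groups. Their share of each library was 0.3125, 0.245, 0.2318 and 0.2466% in WT saline and 0.5727, 0.3648, 0.2431 and 0.2226% in WT insulin. In ERRα-/- liver it was 0.4441, 0.2225, 0.2561 and 0.3053% with saline and 0.3491, 0.3209 and 0.2521% with insulin. Replicate 1 was the highest mouse of its group in each of these 4 groups, and WT insulin 1 and ERRα-/- saline 1 had the highest shares of the 15 livers. Gene by gene, replicate 1 was the highest for 10 of 10 members in WT saline, WT insulin and ERRα-/- saline, and for 6 of 10 in ERRα-/- insulin. The labels give no batch.

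In the ERRα3SA experiment the share was 0.3761, 0.356, 0.2991 and 0.379% in WT liver and 0.3856, 0.4717, 0.3154 and 0.6853% in ERRα3SA liver. WT muscle had 0.05788, 0.05431, 0.05427 and 0.05708%, and ERRα3SA muscle had 0.06034, 0.05273, 0.05365 and 0.1083%. The TMM factor of ERRα3SA muscle 1 was 0.7994, so that its members summed to 754.7 CPM, against 505.5 to 543.5 CPM in WT muscle, while its share was near theirs. ERRα3SA liver 4 was the highest liver for 9 of 10 members and ERRα3SA muscle 4 the highest muscle of its group for 8 of 10, while liver 3 was the lowest for 9 of 10 in both genotypes. ERRα3SA liver 4 also differed in other ways: it had the fewest counts (20481405), albumin took 4.041% of its counts against 6.401 to 7.351% in the other ERRα3SA livers, and its hepatocyte markers summed to 57890 CPM against 91610 to 104900 CPM. ERRα3SA muscle 1 had 19.32% of its counts from the mitochondrial genome, against 9.146 to 9.846% in the other 3. Settings that leave out more than 1 library were chosen after seeing the data.

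**Figure D1:**
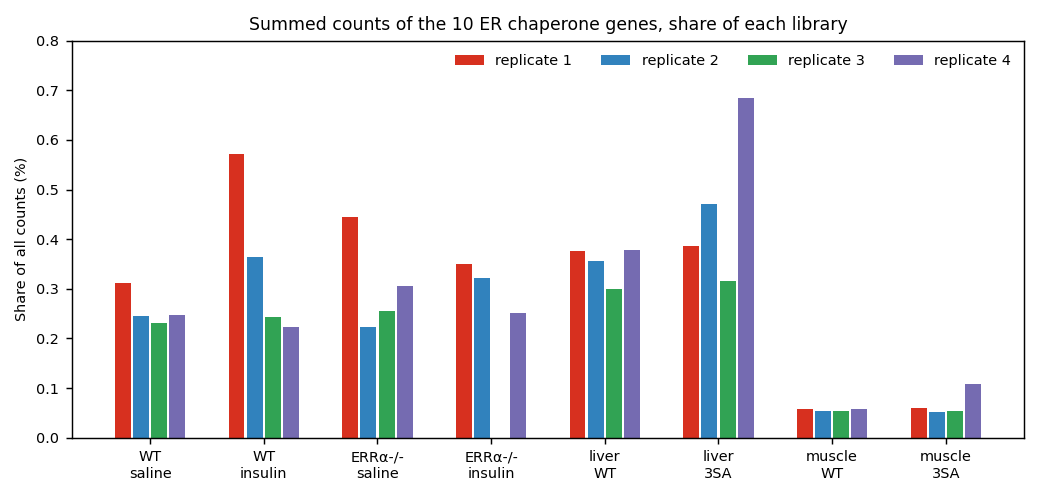
Share of each library's counts (%, y axis) taken by the 10 ER chaperone genes, with 1 bar for each mouse, coloured by replicate number, in the 8 groups (x axis). WT insulin 1 reached 0.5727% and ERRα3SA liver 4 reached 0.6853%, while muscle stayed between 0.05273 and 0.1083%.

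Levels between genes are compared as CPM per kilobase of exon. In WT liver of the ERRα3SA experiment the order was Calr (330.2 ± 14.18, SD, n = 4), Hspa5 (245.3 ± 43.85), Hsp90b1 (159.2 ± 16.1), Pdia4 (94.71 ± 10.1), Pdia6 (92.24 ± 5.106), Xbp1 (85.9 ± 16.87), Sdf2l1 (33.1 ± 3.65), Manf (27.03 ± 6.777), Creld2 (24.03 ± 8.743) and Dnajb9 (23.48 ± 3.766). The ranges of Calr, Hspa5 and Hsp90b1 were separate from each other, Pdia4, Pdia6 and Xbp1 did not differ beyond their spread, and neither did Sdf2l1, Manf, Creld2 and Dnajb9 as neighbours. In WT saline liver of the insulin experiment Calr (191.6 ± 35.24 CPM per kilobase) and Hspa5 (185.3 ± 25.88) were first without differing beyond their spread. Hsp90b1 (135.8 ± 28.08) overlapped Hspa5, and Pdia4 (92.76 ± 16.51) overlapped Hsp90b1. Xbp1 (59.84 ± 9.621) stood apart from its neighbours, Pdia6 (33.67 ± 8.156) overlapped Creld2 (20.23 ± 6.552), and Creld2, Dnajb9 (17.66 ± 2.551) and Sdf2l1 (14.66 ± 3.079) overlapped as neighbours. Manf (8.734 ± 1.598) was last and apart from Sdf2l1.

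Insulin in WT liver was compared first. Hspa5 was at 930.1, 804, 709.2 and 691 CPM in WT saline and at 2427, 1359, 859.2 and 755.2 CPM in WT insulin. The high values were WT insulin 1 and 2, while WT insulin 3 and 4 lay within the range of the saline mice. Creld2 was at 41.01, 23.2, 22.25 and 24.06 CPM with saline and at 138.5, 83.24, 28.09 and 22.05 CPM with insulin. Again WT insulin 1 and 2 were above all saline mice and the other pair was not. Manf was at 38.29, 27.68, 25.48 and 31.66 CPM with saline and at 122.8, 83.52, 33.37 and 32.84 CPM with insulin. The same pair of mice was above the saline range, and the other pair was within it.

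For these genes edgeR gave log2 fold changes of 0.7854 ± 0.3154 (SE) for Hspa5 with an adjusted p of 0.227, 1.299 ± 0.4962 for Creld2 with an adjusted p of 0.205, and 1.147 ± 0.3788 for Manf with an adjusted p of 0.145. Called means an adjusted p under 0.05 over all genes tested. The rule of the study's methods was an unadjusted p under 0.05 with a fold of at least 1.2, both from DESeq2. Here it is applied to values from edgeR except where DESeq2 is named. Shares of all genes by this rule are for the main edgeR fits on all samples. Counts from DESeq2 and counts with samples left out have no such share beside them. The test in edgeR called 0 of 10 members, as against 3.16% of 13463 genes, and 3 of 10 met the study's rule, as against 17.2% of genes. DESeq2 also called 0 of 10, and 2 of 10 met the study's rule. The median log2 fold change of the members was 0.3758, with 9 of 10 positive, against 0.003621 over all genes. Without WT insulin 1 the median was 0.06844 with 7 of 10 positive, 1 member (Manf) met the study's rule, and the log2 fold change was 0.3397 for Hspa5, 0.6865 for Creld2 and 0.6978 for Manf. Leaving out WT saline 2, 3 or 4 also left 1 member by that rule, and leaving out WT insulin 3 or 4 gave 4.

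**Figure D2:**
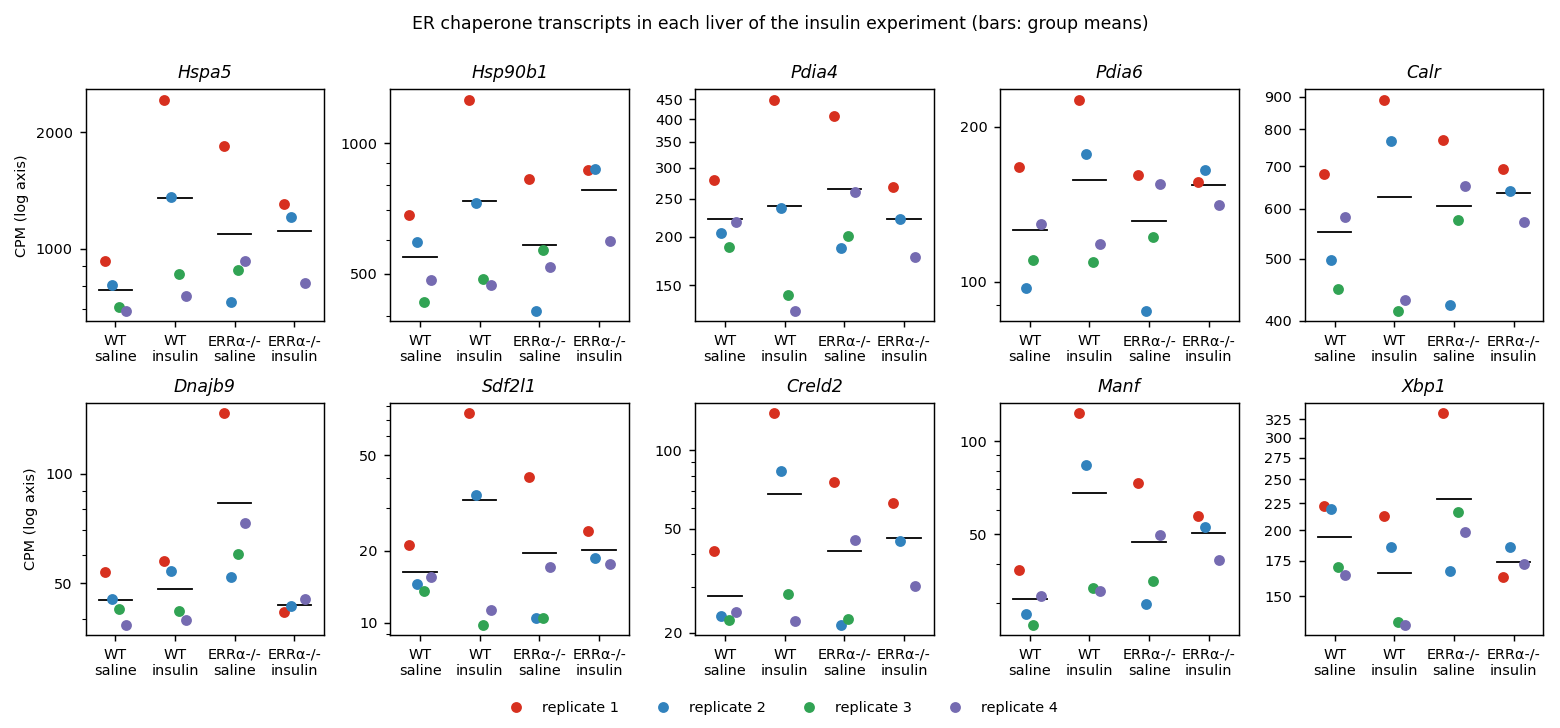
CPM (log y axis) of each of the 10 genes in every liver of the insulin experiment, with 1 point for each mouse coloured by replicate number and bars at group means (n = 4, 4, 4 and 3). Replicate 1 was the highest for 10 of 10 genes in WT saline, WT insulin and ERRα-/- saline.

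Sdf2l1 showed the same split at a lower level. It was at 21.21, 14.59, 13.57 and 15.6 CPM in WT saline and at 74.56, 34.06, 9.825 and 11.31 CPM in WT insulin. WT insulin 1 and 2 were above every saline mouse and WT insulin 3 and 4 were below every one, and the log2 fold change was 0.9978 with a 95% interval from -0.1664 to 2.162 (adjusted p = 0.36, edgeR). Without WT insulin 1 it was 0.1789. Hsp90b1 ranged from 431.1 to 684.9 CPM with saline and from 471.1 to 1261 CPM with insulin, Pdia4 from 188.1 to 278.9 and from 129 to 449 CPM, and Calr from 448 to 679.3 and from 414.3 to 890.5 CPM. In each of them the groups overlapped. Pdia6 ranged from 97.19 to 167.3 CPM with saline and from 109.1 to 225.8 CPM with insulin. Xbp1 was the member with a negative log2 fold change, -0.2249 (adjusted p = 0.57, edgeR; -0.3678 without WT insulin 1), between ranges of 164.5 to 222.8 and 132.3 to 213.2 CPM.

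In ERRα-/- liver the result turned on Dnajb9. It was at 146.6, 51.95, 60.35 and 73.26 CPM with saline and at 41.81, 43.43 and 45.33 CPM with insulin. Every insulin mouse was below every saline mouse, and the high value was ERRα-/- saline 1. The log2 fold change was -0.935 ± 0.3019 (adjusted p = 0.128, edgeR), and without ERRα-/- saline 1 it was -0.5094 (adjusted p = 0.0822, edgeR). By edgeR 0 of 10 members were called, as against 2.91% of 13684 genes, 1 of 10 met the study's rule, as against 17.2%, and DESeq2 called 0. Hspa5 was at 1839, 728.1, 879 and 930.2 CPM with saline and at 1306, 1205 and 815.7 CPM with insulin. These groups overlapped, since saline 1 was above all insulin mice and the other 3 saline mice lay among or below them, and the log2 fold change was 0.01493, or 0.3874 without saline 1. The median over members was 0.0517 with 7 of 10 positive, and without ERRα-/- saline 1 it was 0.3649 with 8 of 10 positive. In that setting 3 of 10 met the study's rule: Hsp90b1 (0.6362) and Sdf2l1 (0.6671) with positive values, and Dnajb9 with its negative one. The median was negative without ERRα-/- saline 2 (-0.1002), saline 3 (-0.05883) or insulin 1 (-0.1164), so its sign was not fixed.

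ERRα-/- and WT livers were then compared under saline, a comparison that shares the WT saline and the ERRα-/- saline mice with the insulin comparisons. Dnajb9 was at 53.83, 45.27, 42.5 and 38.48 CPM in WT saline, and the values in ERRα-/- saline given above overlapped these by a single mouse, ERRα-/- saline 2 at 51.95 CPM. The log2 fold change was 0.8834 ± 0.2796 with an adjusted p of 0.251 by edgeR, and DESeq2 gave 0.8836 with an adjusted p of 0.0446, the 1 member call by DESeq2 among the comparisons within a tissue. Over its other alternatives run with edgeR the adjusted p of Dnajb9 stayed above 0.05, and without ERRα-/- saline 1 the log2 fold change was 0.4583 (adjusted p = 0.405). Manf was at 73.31, 29.74, 35.16 and 49.83 CPM in ERRα-/- saline, of which 29.74 and 35.16 CPM were within the WT range, and its log2 fold change was 0.6113 (adjusted p = 0.348, edgeR), or 0.3134 without ERRα-/- saline 1. Of the 10 members edgeR called 0, as against 0.0816% of 13481 genes, and 2 of 10 met the study's rule, as against 11.3%. That count was 4 without ERRα-/- saline 2 (Hspa5, Dnajb9, Creld2 and Manf, all higher). In this setting edgeR called 47 of all genes, against 11 with every sample, and no share of all genes by the study's rule stands beside the 4. The count was 1 (Dnajb9) without WT saline 2, 3 or 4 or ERRα-/- saline 1 or 4. All 10 log2 fold changes were positive, with a median of 0.2585 against 0.003653 over all genes, and without ERRα-/- saline 1 the median was -0.002168 with 4 of 10 positive, while without ERRα-/- saline 2 it was 0.4285 with 10 of 10 positive.

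ERRα-/- and WT livers were also compared after insulin. The test in edgeR called 0 of 10 members in ERRα-/- against WT, as against 0.0585% of 13665 genes, 0 of 10 met the study's rule, as against 9.99%, and DESeq2 called 0 with 0 by the study's rule. The smallest adjusted p was 0.736, for Sdf2l1 at a log2 fold change of -0.6982 with a 95% interval from -2.012 to 0.6156, and without WT insulin 1 that gene was at 0.1164. The median was -0.1385 with 3 of 10 positive, and without WT insulin 1 it was 0.164 with 9 of 10 positive, so the sign of the median turned on that mouse. Without WT insulin 3 or 4 it was -0.2573 or -0.2853 with 0 of 10 positive.

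Whether the insulin effect differed between genotypes was tested as an interaction over the 4 groups. By edgeR 0 of 10 members were called and 0% of 14670 genes, 1 of 10 members met the study's rule, as against 8.79% of genes, and DESeq2 called 0 members and 10 genes in each direction. The 1 member was Dnajb9, at -1.033 ± 0.3599 on the log2 scale (adjusted p = 0.492, edgeR). All 10 interaction estimates were negative, that is, the insulin effect in ERRα-/- was estimated below that in WT, with a median of -0.5594 against -0.01976 over all genes. The estimates for Creld2 (-1.135), Manf (-1.042) and Sdf2l1 (-0.9552) had 95% intervals that included 0, and without WT insulin 1 they were -0.522, -0.5933 and -0.1361. Leaving out WT insulin 4 gave 3 members by the study's rule (Dnajb9, Creld2 and Manf), and leaving out WT insulin 3 or ERRα-/- saline 2 gave 2 (Dnajb9 and Manf), all with negative estimates. Without WT insulin 1 and ERRα-/- saline 1 the median was 0.2262 with 7 of 10 positive, and without replicate 1 in all 4 groups it was 0.07898 with 6 of 10 positive. Dnajb9 was at -0.5146 and -0.5714 in these settings. The sign of the members' median in the interaction therefore turned on those libraries, and this difference between genotypes did not pass the test in any setting.

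Other genes of the pathway were read from lists. In WT liver, where edgeR called 205 of 13463 genes higher and 3.16% in all, insulin raised 2 of 30 genes of ER-associated degradation: Ube2g2, a ubiquitin-conjugating enzyme, by 1.083 on the log2 scale (adjusted p = 0.00305) and Ube2j2, another such enzyme at the ER membrane, by 0.5674 (adjusted p = 0.0393). Ube2g2 was at 20.74, 29.52, 24.24 and 25.4 CPM with saline and at 47.97, 61.8, 52.35 and 49.42 CPM with insulin. All 4 insulin mice were above all 4 saline mice. In ERRα-/- liver Ube2g2 was at 36.97, 29.45, 28.87 and 30.19 CPM with saline and at 50.06, 46.62 and 50.32 CPM with insulin. The groups did not overlap there either, and it rose by 0.6398 (adjusted p = 0.0184, edgeR); its interaction was -0.4388 (adjusted p = 0.542, edgeR). In WT liver 2 of 12 mitochondrial chaperones also rose, Clpx (0.6931, adjusted p = 0.035, edgeR) and Grpel1 (0.6074, adjusted p = 0.0277, edgeR), beside the same share of 3.16% over all genes.

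By edgeR 0 of 10 tested genes of the sensor list were called in WT liver, with 2 lower by the study's rule, as against 1199 of 13463 genes. For Ern1, which encodes IRE1, the log2 fold change was -0.4726 (adjusted p = 0.26, edgeR), for Atf6 0.07965, and for Eif2ak3 -0.05372. In ERRα-/- liver, where edgeR called 213 of 13684 genes higher, 1 of 10 sensor genes and 1 of 12 PERK branch genes rose: Mbtps2, a protease that activates ATF6, by 0.5274 (adjusted p = 0.035, edgeR), and Sesn2 by 1.334 (adjusted p = 0.024, edgeR). Eif2ak3 was at 38.52, 18.35, 22.3 and 19.53 CPM in ERRα-/- saline and at 14.57, 16.54 and 14.13 CPM in ERRα-/- insulin. Like Dnajb9 it was highest in ERRα-/- saline 1 and lower in every insulin mouse, with a log2 fold change of -0.7135 (adjusted p = 0.143, edgeR). For the PERK branch transcription factors Atf4 and Ddit3 the log2 fold changes were 0.2374 and 0.1976 in WT and -0.04894 and -0.1748 in ERRα-/-, with adjusted p of 0.586 or more by edgeR.

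Chac1, an enzyme of glutathione breakdown downstream of ATF4, had a wide spread. It was at 0.8026, 1.099, 0.3656 and 0.624 CPM in WT saline and at 2.47, 4.112, 1.267 and 2.679 CPM in WT insulin. These groups did not overlap, and the log2 fold change was 1.866 (adjusted p = 0.0531, edgeR). In ERRα-/- it was at 9.84, 1.285, 5.831 and 5.142 CPM with saline and at 3.981, 2.744 and 4.775 CPM with insulin. All ERRα-/- saline mice were above all WT saline mice, with a log2 fold change of 2.939 (adjusted p = 0.105, edgeR), and the interaction was -2.393 (adjusted p = 0.423, edgeR). In ERRα-/- against WT, edgeR called 0 genes of any other pathway list with either injection. By the study's rule the list of translocation and export had 9 of 30 genes higher under saline, as against 806 of 13481 genes higher and 11.3% in either direction. Among the 9 were Sec23b of the COPII coat (0.5878, adjusted p = 0.214, edgeR), Ssr2 (0.305) and Spcs1 (0.2721). With insulin 1 of the 30 genes was higher and 1 lower by that rule, as against 624 higher and 741 lower of 13665 genes.

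As a check of the injection, Igfbp1, a hepatocyte gene whose transcription insulin is known to lower, was at 166.8, 199.6, 153.9 and 77.61 CPM in WT saline and at 772.9, 1539, 300.7 and 441.6 CPM in WT insulin. All insulin mice were above all saline mice, and it rose by 2.355 (adjusted p = 0.0225, edgeR), a direction opposite to that known effect whose cause was not tested. In ERRα-/- the log2 fold change was 1.287 (adjusted p = 0.238, edgeR). Irs2, an insulin receptor substrate, was called in ERRα-/- (0.948, adjusted p = 0.0466, edgeR) and was at 0.6148 in WT (adjusted p = 0.122, edgeR). G6pc and Srebf1 were not called by edgeR in either genotype: their log2 fold changes were 0.6482 and -0.1849 in WT and 0.8169 and -0.7728 in ERRα-/-. The WT mouse with the highest Igfbp1 was WT insulin 2, not WT insulin 1.

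**Figure D3:**
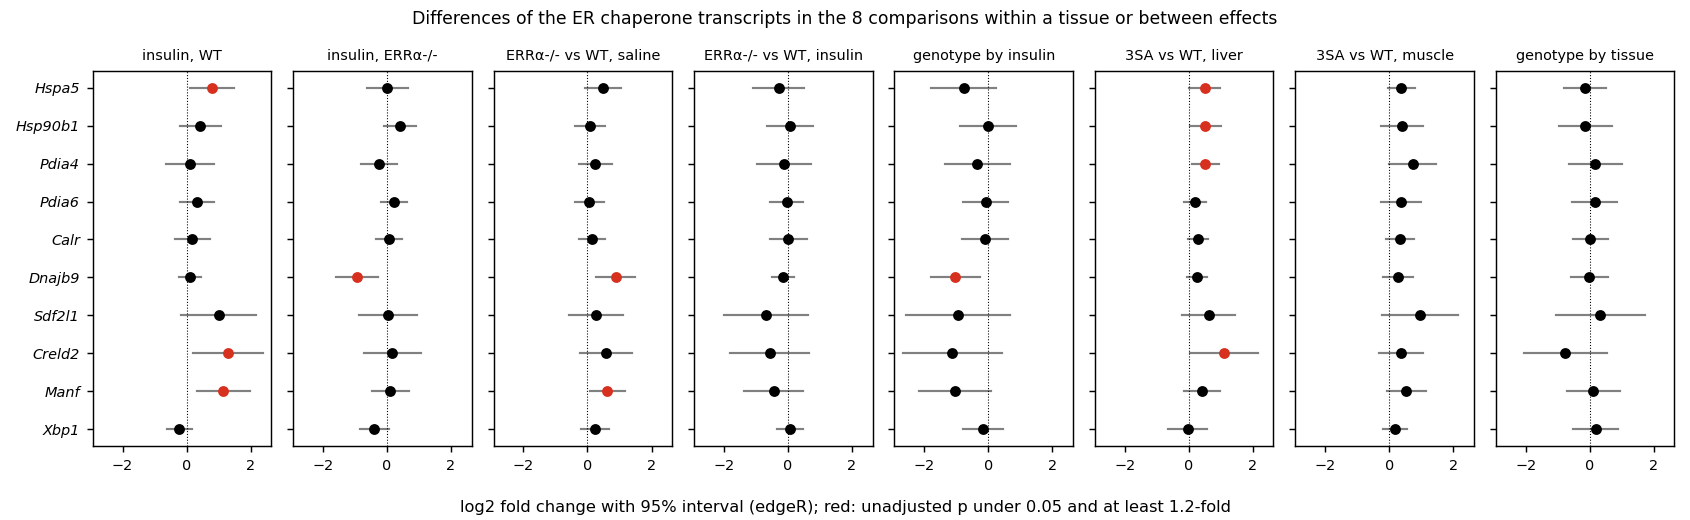
Log2 fold changes (x axis) with 95% intervals from edgeR for the 10 genes (y axis) in the 8 comparisons other than muscle against liver, with red points for an unadjusted p under 0.05 and a fold of at least 1.2. No point had an adjusted p under 0.05, and the 10 interaction estimates for genotype by insulin were all negative.

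In ERRα3SA against WT liver the members' log2 fold changes were mostly positive and single mice again stood out. Creld2 was at 41.73, 34.22, 15.55 and 39.79 CPM in WT liver and at 38.52, 80.25, 28.17 and 134.1 CPM in ERRα3SA liver. ERRα3SA liver 2 and 4 were above all WT livers, the other pair was within the WT range, and WT liver 3 was low. Hspa5 was at 1225, 1038, 784.8 and 1101 CPM in WT and at 1252, 1497, 1021 and 2074 CPM in ERRα3SA. Here 3 of the 4 ERRα3SA livers were above all WT livers, by the least in liver 1, and liver 3 was within their range. Pdia4 was at 255.8, 223.1, 197.2 and 232.8 CPM in WT and at 255.5, 340, 247.5 and 454.1 CPM in ERRα3SA. ERRα3SA liver 1 and 3 lay just under the highest WT liver, and liver 2 and 4 above it.

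Log2 fold changes were 1.102 ± 0.4711 for Creld2 (adjusted p = 0.651, edgeR), 0.4987 ± 0.2183 for Hspa5 (adjusted p = 0.657, edgeR), 0.5057 for Hsp90b1 (adjusted p = 0.651, edgeR) and 0.5174 for Pdia4 (adjusted p = 0.629, edgeR). Of the 10 members edgeR called 0 and 0% of 13339 genes, while 4 of 10 members met the study's rule, as against 4.88% of genes. DESeq2 called 0 members, with 5 by the study's rule, and 25 genes higher and 17 lower. The 4.88% is from edgeR, so the 5 has no share of all genes beside it. The median was 0.45 with 9 of 10 positive, against -0.0003859 over all genes. Without ERRα3SA liver 4 the median was 0.2381, with Creld2 at 0.5758, Hspa5 at 0.2775 and Hsp90b1 at 0.2463. In that setting Pdia4 alone of the 4 still met the study's rule (0.3072), and Xbp1 met it with a negative value (-0.3776). The count by that rule was 0 without WT liver 3, 1 without WT liver 2 or without WT liver 4, and 8 without ERRα3SA liver 3. The 4.88% is for the fit on all livers, so these counts have no share of all genes in their own setting beside them. Xbp1 was at 261.8, 263.9, 232.1 and 358.3 CPM in WT liver and at 194.4, 269.9, 179.6 and 441.2 CPM in ERRα3SA liver. It was the member with a negative value, -0.03579, which was positive without WT liver 4 (0.1071), ERRα3SA liver 1 (0.09549) or liver 3 (0.1169), and its ERRα3SA livers lay on both sides of the WT range.

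ERRα3SA liver 4, with the high chaperone share and the low hepatocyte marker level, also had the highest sums of cholangiocyte (59.79 CPM), macrophage (413.6 CPM) and neutrophil markers (7.408 CPM) among the 8 livers of its table. The part of these in the members' values was not tested. Sdf2l1 was at 36.69, 36.76, 31.66 and 41.57 CPM in WT liver and at 42.48, 66.19, 20.28 and 96.69 CPM in ERRα3SA liver. It had both its highest and its lowest liver in the ERRα3SA group, and its log2 fold change was 0.6263 (adjusted p = 0.744, edgeR). That value was 0.23 without ERRα3SA liver 4 and 0.9036 without liver 3, where it met the study's rule. In the other lists edgeR called 0 genes in ERRα3SA liver. By the study's rule 333 of 13339 genes were higher and 4.88% passed in either direction. By the same rule 4 of 20 cytosolic chaperones were higher, among them Stip1, which links Hsp70 and Hsp90 (0.2825, adjusted p = 0.528, edgeR), and 1 of 30 genes of ER-associated degradation was higher, Sel1l, a scaffold of the ubiquitin ligase complex (0.3651, adjusted p = 0.563, edgeR). Chac1 was at 4.53, 5.11, 3.685 and 5.575 CPM in WT liver and at 2.164, 2.972, 1.862 and 3.367 CPM in ERRα3SA liver. All ERRα3SA livers were below all WT livers for Chac1, and its log2 fold change was -0.8605 (adjusted p = 0.528, edgeR).

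**Figure D4:**
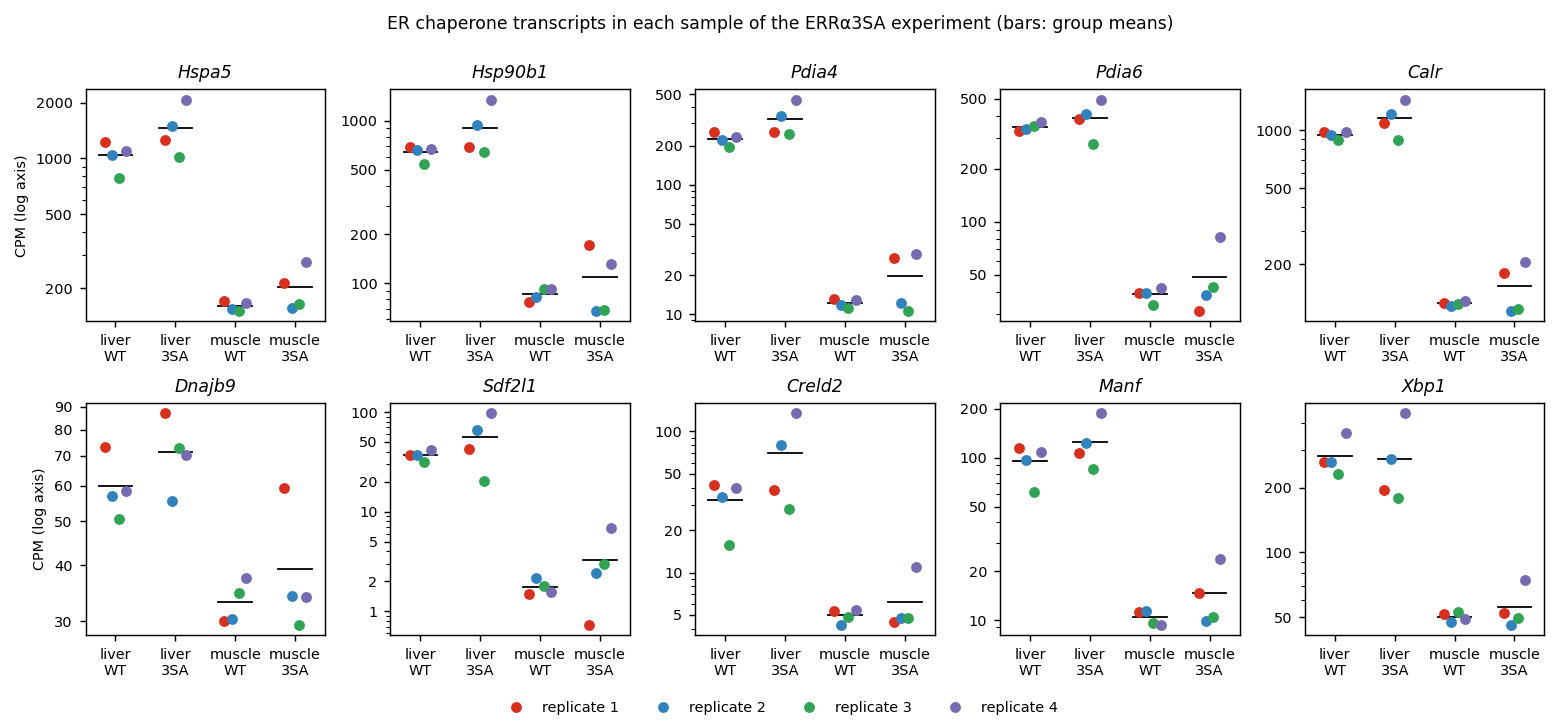
CPM (log y axis) of each of the 10 genes in every liver and muscle of the ERRα3SA experiment, with 1 point for each mouse coloured by replicate number and bars at group means (n = 4 each). ERRα3SA liver 4 was the highest of its group for 9 of 10 genes and ERRα3SA muscle 4 for 8 of 10.

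In ERRα3SA against WT muscle, Hsp90b1 was at 76.49, 82.52, 91.8 and 91.98 CPM in WT and at 171.4, 67.7, 68.45 and 131.8 CPM in ERRα3SA. ERRα3SA muscle 1 and 4 were above all WT muscles and muscle 2 and 3 below all of them. Pdia4 was at 13.07, 11.73, 11.29 and 12.87 CPM in WT and at 27, 12.22, 10.64 and 29.37 CPM in ERRα3SA. The same muscles, 1 and 4, were high, and the other pair was at or near the WT range. For Hsp90b1 and Pdia4 muscle 1 was high before scaling too. From 22241960 counts in all it had 3048 and 480, against 2089 to 2423 and 297 to 372 in WT muscles of 23561675 to 25831378 counts. This does not extend to the members as a set, whose share in muscle 1 (0.06034%) was near WT muscle (0.05427 to 0.05788%). Sdf2l1 was at 1.476, 2.133, 1.781 and 1.566 CPM in WT and at 0.7311, 2.444, 2.976 and 6.838 CPM in ERRα3SA. Here muscle 1 was the lowest of all and muscle 2, 3 and 4 were above every WT muscle.

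The test in edgeR called 0 of 10 members in muscle and 0% of 14081 genes, 0 of 10 members met the study's rule, as against 4.54% of genes, and DESeq2 called 0 members, with 1 by the study's rule. All 10 log2 fold changes were positive, from 0.1784 for Xbp1 to 0.9546 for Sdf2l1, with a median of 0.3687 against 0.02259 over all genes. The count by the study's rule was 4 without ERRα3SA muscle 2 and 4 without muscle 3, in both cases Hspa5, Pdia4, Calr and Manf, all higher. The 4.54% is for the edgeR fit on all muscles. No share of all genes stands beside these counts or the DESeq2 count of 1. Without ERRα3SA muscle 4 the median was 0.1776 with 7 of 10 positive, Sdf2l1 was at 0.2914 and Xbp1 at -0.00374. Without ERRα3SA muscle 1 edgeR called 340 genes higher and 124 lower, of which 0 were members, and the smallest adjusted p of a member was 0.0829, for Sdf2l1 at 1.285. Without both muscles, a setting with n = 2 in the ERRα3SA group, edgeR called 966 genes higher and 539 lower, the members' median was -0.04603 with 3 of 10 positive, and 1 member was called: Hsp90b1, at -0.3138 (adjusted p = 0.0227) where all 8 muscles gave 0.3887. Hspe1, a mitochondrial chaperone, was at 40.86, 43.57, 38.65 and 44.88 CPM in WT and at 74.07, 59.93, 55.48 and 69.63 CPM in ERRα3SA. Its groups did not overlap, with a log2 fold change of 0.654 (adjusted p = 0.318, edgeR).

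Whether the ERRα3SA effect differed between tissues was tested as an interaction that treats all samples as independent. By edgeR 0 of 10 members were called and 0% of 15688 genes, 0 of 10 members met the study's rule, as against 5.57% of genes, and DESeq2 called 0 members, with 0 by the study's rule. Estimates ran from -0.7636 for Creld2 to 0.322 for Sdf2l1, with a median of 0.05839 and 6 of 10 positive. The median was -0.2138 without ERRα3SA muscle 4 and 0.2426 without ERRα3SA liver 4, where 1 member, Xbp1 (0.5534), met the study's rule. Creld2 was at -0.2048 without that liver, and Sdf2l1 at -0.2957 without that muscle. Without ERRα3SA muscle 1 edgeR called 199 genes higher and 170 lower, of which 0 were members.

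Between tissues the members did differ. Pdia4 was at 197.2 to 255.8 CPM in WT liver and at 11.29 to 13.07 CPM in WT muscle, and Sdf2l1 at 31.66 to 41.57 CPM and at 1.476 to 2.133 CPM. Their log2 fold changes in muscle against liver, -4.181 ± 0.09706 for Pdia4 (adjusted p = 2.93e-14, edgeR) and -4.366 ± 0.1242 for Sdf2l1 (adjusted p = 2.6e-13, edgeR), were the most negative of the list. Hspa5 was at 170.1, 154, 150.6 and 165.3 CPM in WT muscle, against 784.8 CPM or more in WT liver. No muscle came near a liver, and the log2 fold change was -2.665 ± 0.1247 (adjusted p = 7.14e-11, edgeR). Dnajb9 was at 73.34, 57.04, 50.65 and 58.43 CPM in WT liver and at 30.07, 30.38, 34.63 and 37.43 CPM in WT muscle. It differed the least, at -0.8244 ± 0.1123 (adjusted p = 9.22e-06, edgeR), again with no overlap.

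All 10 members were lower in muscle and called by edgeR, as against 86.5% of 14886 genes called, of which 6463 were lower and 6411 higher, and 10 of 10 met the study's rule, as against 84.2% of genes. DESeq2 also called 10 of 10. The members' median was -2.882 against 0.001455 over all genes. Since most genes were called between these tissues, the call alone says little about the members. The other values were -2.872 for Hsp90b1, -3.128 for Pdia6, -2.892 for Calr, -2.692 for Creld2, -3.163 for Manf and -2.435 for Xbp1. ERRα3SA muscle had Hspa5 at 212.5, 155.2, 164 and 277.4 CPM, and these too were all below the livers.

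**Figure D5:**
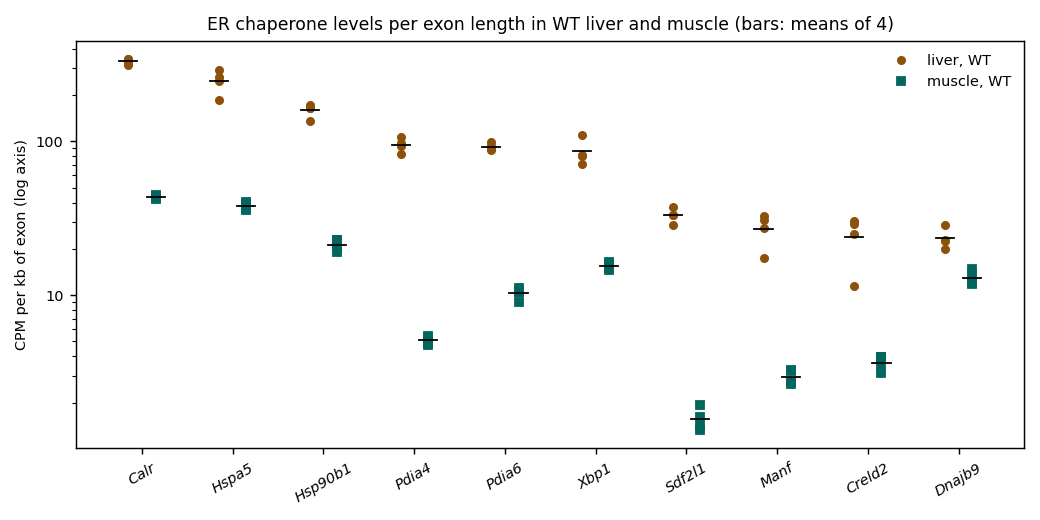
CPM per kilobase of exon (log y axis) of the 10 genes (x axis, in the order of their mean in liver) in WT liver and WT muscle of the ERRα3SA experiment, with 1 point for each sample and bars at the means (n = 4). Every gene was lower in every muscle than in every liver, from 330.2 to 43.48 for Calr and from 23.48 to 13 for Dnajb9.

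The order of levels also differed between the tissues. On the scale of CPM per kilobase, WT muscle had Calr (43.48 ± 0.9945, SD, n = 4), Hspa5 (37.83 ± 2.179), Hsp90b1 (21.26 ± 1.875), Xbp1 (15.5 ± 0.7724), Dnajb9 (13 ± 1.392), Pdia6 (10.31 ± 0.9285), Pdia4 (5.102 ± 0.3611), Creld2 (3.638 ± 0.3991), Manf (2.951 ± 0.3112) and Sdf2l1 (1.569 ± 0.2637). Xbp1 and Dnajb9 did not differ beyond their spread there, and neither did Creld2 and Manf. In muscle Dnajb9 stood above Pdia6, Pdia4, Creld2, Manf and Sdf2l1 with no overlap. In WT liver of the same experiment it had the lowest mean, without differing beyond the spread from Creld2. In WT saline liver of the insulin experiment Dnajb9 (17.66) had a higher mean than Sdf2l1 (14.66) and Manf (8.734).

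Most of the pathway was lower in muscle too. Beside 6463 of 14886 genes lower and 6411 higher, edgeR called 26 of 33 further ER folding genes lower and 5 higher, 18 of 30 genes of ER-associated degradation lower and 7 higher, and 23 of 32 genes of translocation and export lower and 6 higher. Of the 20 cytosolic chaperones 8 were lower and 10 higher, and of the 12 mitochondrial chaperones 9 were lower and 1 higher, with medians of 0.09611 and -0.6554. The sensor genes Ern1 (-2.961), Eif2ak3 (-1.604) and Atf6 (-0.9434) were lower, and the PERK branch factors Ddit3 (1.285) and Atf4 (0.2224, adjusted p = 0.0244, edgeR) were higher. In all, 8 of 10 sensor genes were lower and 2 higher, and the PERK branch had 6 of 12 in each direction. Edem1, which draws misfolded glycoproteins towards degradation, was at 278.3, 288.7, 257.5 and 308.3 CPM in WT liver and at 11.28, 9.757, 9.775 and 8.824 CPM in WT muscle. It was the lowest of its list in muscle against liver, at -4.801 (adjusted p = 3.86e-15, edgeR). Cdnf, the relative of Manf, went the other way, at 0.7019, 0.6734, 0.5142 and 0.6691 CPM in WT liver and at 56.95, 60.87, 65.28 and 68.3 CPM in WT muscle. All muscles were above all livers for Cdnf, and it was higher by 6.629 (adjusted p = 1.39e-15, edgeR), whereas Manf was lower by 3.163.

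Between mice of a group the median member varied more than the median gene. The members' median pooled SD on the log2 scale was 0.4966 against 0.3214 over 14670 genes in the insulin livers, 0.361 against 0.1839 over 13339 genes in the ERRα3SA experiment's livers, and 0.4308 against 0.3121 over 14081 genes in its muscles, with all mice included. Sdf2l1 (0.8842) and Creld2 (0.8591) had the highest SD of the members in the insulin livers, above 82.4% and 81.8% of genes. In the livers of the ERRα3SA experiment Creld2 (0.8583) was above 98.2% of genes, Sdf2l1 (0.6924) above 96.3% and Xbp1 (0.4572) above 87.4%. Xbp1 had the lowest SD of the members in the insulin livers (0.3127, above 48.6% of genes) and in the muscles (0.2223, above 30.6% of genes), below the median gene in both. In the muscles Hspa5 (0.2783) and Calr (0.3041) were below it too.

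Over the 15 livers of the insulin experiment each member's log2 CPM was set against the mean of the other 9, as a description that mixes groups and shares each library's depth and normalization. Hspa5 had r = 0.9478 and rho = 0.8643, and r = 0.8664 without the samples farthest from the median, WT insulin 1 and ERRα-/- saline 1. Creld2 had r = 0.9457, rho = 0.9071 and r = 0.9174 without those samples, and Calr had 0.9292, 0.95 and 0.9413. Dnajb9 (r = 0.5316, rho = 0.5071, r = 0.3101 without them) and Xbp1 (r = 0.605, rho = 0.5214, r = 0.3893 without them) followed the others least. Pdia6, Hsp90b1, Pdia4, Manf and Sdf2l1 had r from 0.861 to 0.9419, rho from 0.8321 to 0.8821, and r from 0.7397 to 0.8751 without those samples. Over the 8 livers of the ERRα3SA experiment Hspa5 had r = 0.9763 and rho = 0.9762, with r = 0.9191 without ERRα3SA liver 4 and WT liver 3, whereas Dnajb9 had r = 0.1667 and rho = 0.119, with r = -0.419 without them.

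Among the genes outside the lists most like the mean of the members over the 15 livers, of 13011 compared, were Slc35b1, an ER nucleotide sugar and ATP transporter (r = 0.8897, rho = 0.8286, r = 0.8518 without the farthest samples), the cargo receptors Tmed10 (r = 0.877, rho = 0.8893, r = 0.8267) and Tmed3 (r = 0.8739, rho = 0.8857, r = 0.8235), and Tmed9 (r = 0.8663, rho = 0.7286, r = 0.7269). Over the 8 livers of the ERRα3SA experiment r was 0.935 for Slc35b1 (rho = 0.7857, 0.7022 without the farthest samples) and 0.8992 for Tmed3 (rho = 0.6905, 0.4793 without them). It was 0.5287 for Tmed10 (rho = 0.5, 0.07338 without them) and 0.4916 for Tmed9 (rho = 0.5952, 0.819 without them).

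Marker lists of other cell types were read in every group. Hepatocyte markers (5 of 5 in both tables, Alb highest) summed to 82140 to 111000 CPM in the insulin livers, 57890 to 108900 CPM in the other livers and 8.055 to 18.64 CPM in muscle, where Cyp2e1 was the most abundant. Myofibre markers (5 of 5, Myh4 highest) summed to 79840 to 173600 CPM in muscle and to at most 69.73 CPM in a liver (Acta1 highest there). Plasma and B cells are rich in ER chaperones; their markers (8 of 8, Igkc highest in liver, Tnfrsf17 at 0 in all livers) summed to at most 13.63 CPM in any liver, and were 4.595 CPM in WT insulin 1 against 10.89 CPM in WT insulin 2. In muscle they summed to 1.42 to 3.037 CPM, with Mzb1 highest. Pancreatic acinar cells are also rich in them; their markers (6 of 6, Pnlip highest in WT saline and Cela1 in the other groups) summed to 925.1, 51.01, 4.044 and 1277 CPM in WT saline and to 15.91, 101.7, 6.885 and 151.1 CPM in WT insulin. In ERRα-/- they summed to 210.8, 27.47, 4.264 and 104.7 CPM with saline and to 5.68 to 8.976 CPM with insulin, with Amy2a5 at 0 in all insulin-experiment livers. They were not highest in WT insulin 1, the liver with the highest chaperone share of that table, though replicate 1 was highest in ERRα-/- saline and in ERRα-/- insulin. In the ERRα3SA experiment they reached 552 CPM in ERRα3SA liver 1 and 43.68 CPM in liver 4, and 0 to 0.8628 CPM in muscle, with Cpa1, Prss2, Pnlip and Amy2a5 at 0 in all muscles.

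Macrophage markers (7 of 7, Clec4f highest in liver) summed to 145.2 to 354.5 CPM in the insulin livers, 298.9 to 413.6 CPM in the other livers, and 24.53 to 34.52 CPM in WT muscle, with Csf1r highest and Clec4f and Marco at 0. ERRα3SA muscle 4, the muscle with the highest chaperone share, had 79.47 CPM of macrophage, 17.99 CPM of neutrophil, 59.37 CPM of cholangiocyte and 2692 CPM of stellate and fibroblast markers, each the highest of its group, and the lowest myofibre sum, 79840 CPM. Their part in the muscle values was not tested. Neutrophil markers (5 of 5, Csf3r highest) otherwise summed to 0.3162 to 7.408 CPM, with Ly6g at 0 in all groups but WT saline. Endothelial markers (6 of 6, Kdr or Stab2 highest in liver, Cdh5 in WT muscle, Pecam1 in ERRα3SA muscle) summed to 110.8 to 226.2 CPM in the insulin livers, 151.9 to 195.3 CPM in the other livers and 265.5 to 378.9 CPM in muscle. Stellate and fibroblast markers (6 of 6, Dcn highest in liver and WT muscle, Col3a1 in ERRα3SA muscle) summed to 156.9 to 274.8 CPM in liver and, in the other muscles, to 1010 to 1523 CPM. Cholangiocyte markers (5 of 5, Spp1 highest) summed to 20.73 to 59.79 CPM in liver, with 42.34 CPM in WT insulin 1 and 59.79 CPM in ERRα3SA liver 4, and to 5.878 to 14.79 CPM in the other muscles, with Epcam at 0 in WT muscle. Adipocyte markers (5 of 5, Fabp4 highest) summed to 2.874 to 13.71 CPM in liver, with Lep at 0 in WT saline and ERRα-/- saline, and to 143.2 to 240.3 CPM in muscle.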

How the data were processed

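Counts per gene were the deposited tables of the authors, whose notes and methods name STAR and the mm10 genome. The ERRα3SA table's muscle columns spell the genotype differently from the sample titles and were paired by replicate number; 0 columns belonged to no sample. The strand setting of counting was not found in the sources used here; Hsp90b1, Pdia6, Dnajb9 and Manf share 415, 50, 14 and up to 166 exon bases with genes on the opposite strand. Each comparison was fitted on its own groups with edgeR 4.0.16 in R 4.3.3 (TMM, filterByExpr, quasi-likelihood test, two-sided), with Benjamini-Hochberg adjustment over all genes tested. CPM used TMM factors over all samples of a table, and log2 CPM a prior count of 2. Alternatives were DESeq2 1.42.0, RLE factors, no low-count filter, mitochondrial genome genes left out, a replicate block, all groups fitted together, and each sample left out. Named genes were the members, Esrra, insulin check genes, the sensors, Atf4, Ddit3, and up to 3 per pathway list and direction with the largest log2 fold change by the study's rule without overlap (2 called genes in muscle against liver). The members and lists were chosen with earlier results of these data known. Figures used matplotlib 3.10.9 in Python 3.11.15.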

Additional observations from a re-analysis of the deposited data

Results flagged for a closer look

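Within groups of 4, a sample was listed when its gap to the nearest other sample took up more of the group's range than chance gives in about 1 in 20 groups. For the members this was so in 3 of 70 groups tested: Creld2 in WT saline 1 at 41.01 CPM, Creld2 in ERRα3SA muscle 4 at 10.96 CPM and Dnajb9 in ERRα3SA muscle 1 at 59.28 CPM, each the highest of its 4. The 3 of 70 is near the share that chance gives. Among the other values 19 of 103 stood apart, and the lists of low-level markers supplied many of them.

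In ERRα3SA muscle 4 the members' share of counts (0.1083%), macrophage markers (79.47 CPM), neutrophil markers (17.99 CPM) and cholangiocyte markers (59.37 CPM) were all far above the other 3 muscles. In ERRα3SA muscle 1 the mitochondrial genome share (19.32%) and endothelial markers (378.9 CPM) were far above the rest. ERRα3SA liver 4 had the lowest total, 20481405 counts, against 22454730 to 22836176 in the rest of its group. ERRα3SA liver 1 had 552 CPM of pancreatic acinar markers, far above its group. ERRα3SA liver 2 had 243.2 CPM of stellate and fibroblast markers, a small gap below the 260.5 to 261.6 CPM in the rest of its group. This sum was also just below the 4 WT livers of its table (243.3 to 274.8 CPM).

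Esrra was far above its group in WT insulin 2 (96.43 CPM), and the mitochondrial genome share was far below its group there (1.88%) and far above it in ERRα-/- saline 3 (3.914%). Cholangiocyte markers were far above the group in WT insulin 1 (42.34 CPM). Macrophage markers were 298.9 CPM in WT liver 1, against 323.3 to 325.1 CPM in the rest of its group. Myofibre markers were far above the group in ERRα-/- saline 2 (0.8727 CPM), WT insulin 3 (69.73 CPM), ERRα3SA liver 3 (8.769 CPM) and WT liver 1 (9.539 CPM), all at low levels beside muscle. Neutrophil markers were far above the group in WT muscle 2 (2.963 CPM).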

How the results depend on the processing

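The members' counts called by edgeR were 0 in 8 comparisons and 10 in muscle against liver, and leaving out each sample in turn gave 0 to 0 and 10 to 10. With the replicate block 4 members met the study's rule in the genotype by insulin interaction, where the fit without it gave 1. No share of all genes in the blocked fit stands beside the 4. The counts called were the same with the block, 0 and 10. The exceptions were DESeq2 for ERRα-/- against WT with saline, with 1 member called (Dnajb9, adjusted p = 0.0446), and ERRα3SA against WT muscle without ERRα3SA muscle 1 and 4, chosen after seeing the data, with 1 member called. There Hsp90b1 was at -0.3138 where all muscles gave 0.3887 and leaving out each in turn gave 0.1087 to 0.5708; the cause was not tested. The member counts and medians without replicate 1 mice in both arms were also chosen after seeing the data. The number of all genes called depended more on the samples: leaving out each in turn gave 105 to 409 for insulin in WT, 42 to 608 in ERRα-/-, 2 to 47 for genotype with saline, 3 to 48 with insulin, and 0 to 464 for ERRα3SA muscle and 0 to 369 for the tissue interaction, both highest without ERRα3SA muscle 1. DESeq2 called 434 genes higher and 502 lower for insulin in WT (edgeR 205 and 220), 484 and 504 in ERRα-/- (213 and 185), 138 and 110 for genotype with saline (6 and 5), 99 and 142 with insulin (4 and 4), 10 and 10 for the insulin interaction, 25 and 17 for ERRα3SA liver, 41 and 15 for ERRα3SA muscle and 18 and 9 for the tissue interaction (edgeR 0 in these last 4). Single genes, counts of members by the study's rule and counts of all genes called were also set against the main fit. Of these values 2835 were the same, 84 stronger, 85 weaker, 99 moved and 1 reversed. For a gene, stronger or weaker means a call gained or lost, and reversed a change of sign with a call. Moved means a shift of at least the SE without a call. For a count, stronger or weaker means a change beyond a set ratio, or from or to 0. No scaling moved the median of all genes by 0.1 or more. The labels do not say whether replicate numbers pair the samples. Correlations of samples with the same number, after group means were removed, ran from -0.2193 to 0.3322. Such correlations over all genes do not settle whether samples with the same number share a factor. With 3 or 4 mice in a group and this spread, a test that missed the threshold does not show that values did not differ. Low counts limit Sdf2l1 and Creld2 in muscle.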
